A study of Homo sapiens with 16 samples.

Results

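The genes described here are 33 genes of cholesterol and fatty acid synthesis, measured by RNA sequencing in HAP1, a near-haploid human cell line that came from a chronic myeloid leukaemia line. They were chosen by symbol from a named list. No cut on their values was applied, but earlier results of these data were known. The list has 19 enzymes of the mevalonate and sterol pathway and of its acetoacetyl-CoA supply. It has 5 genes that encode the SREBP transcription factors or proteins that control them, here named the regulators, with the sterol transfer protein STARD4. The other 8 are genes of fatty acid synthesis and its first steps towards glycerolipids. All 33 were found among the 33121 entries of the deposited table of counts, and all 33 passed the filter on low counts that left 15569 genes to be tested. The study holds 16 libraries in 4 groups of 4: cells of genotype SLC30A10_delta, SLC30A10+/+ cells as their control, a line in which a different gene was deleted, here named the second knockout, and its own control cells, here named the second control set. SLC30A10 encodes a manganese exporter of the plasma membrane. The labels put 1 and the same line identifier on both control sets and a separate one on either deletion, with no number of clones. All groups were grown in the same medium with serum, which itself contains lipoprotein cholesterol. Nothing in the labels says that the 4 libraries of a group came from separate cultures, so the p-values measure the spread between these libraries, which may be technical.

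Cholesterol is built from acetyl-CoA by way of mevalonate, isoprenoid diphosphates, squalene and lanosterol, and fatty acids are built from the same acetyl-CoA through malonyl-CoA. Both routes are switched on by the SREBP proteins, which are made as membrane precursors in the endoplasmic reticulum and carried by SCAP to the Golgi, where proteases release the active factor. When membrane sterol is plentiful, the INSIG proteins hold SCAP and the precursor back, and transcription of most genes of both routes falls together. INSIG1 and SREBF2 are themselves targets of the pathway.

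Library totals ranged from 16058856 to 16648151 counts, and the unit of level is CPM, a gene's count for each 1000000 counts after the library totals were scaled. Counts for SLC30A10 itself were 8, 6, 8 and 9 in its control libraries and 11, 5, 8 and 3 in the libraries labelled as its knockout. These groups overlapped (log2 ratio -0.18, two-sided exact permutation test p = 0.686, n = 4 against 4, smallest p possible 0.0286), so the transcript level does not check the label. Without knockout replicate 4 the log2 ratio was 0.07, and against both control sets pooled it was 0.20. Of 15 blood cell markers only HBA1 passed the filter, with 126 to 166 counts in the SLC30A10 control libraries, 106 to 115 in the SLC30A10 knockout, 59 to 84 in the second control set and 39 to 67 in the second knockout. HBA1 has a near-identical copy, so its counts are uncertain, and its part in the results was not tested. The other 14 had at most 11 counts in any library and 6 of them had none, so defining markers of the blood lineage were at or near 0. The 8 hepatocyte and adipocyte markers had at most 6 counts.

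In the SLC30A10 knockout most genes of both routes were lower than in its control. By edgeR's quasi-likelihood test a gene was called at a Benjamini-Hochberg adjusted p under 0.05. On this rule 26 of the 33 were lower, 2 (FDFT1 and EBP) were higher and 5 (INSIG2, ACACA, LPIN1, NSDHL and TM7SF2) were not called. In these bulk libraries fewer cells that express a gene and less RNA per cell cannot be told apart. Over all 15569 genes tested, 20.2% were called lower and 21.2% higher. The median log2 fold change of the 33 genes was -0.28, and that of all genes was -0.0048. Most of the falls were under 1.5-fold: only MVD, HMGCS1 and FDFT1 were called with a change of at least 1.5-fold, a threshold that 10.4% of all genes passed in either direction, and MVD alone reached 2-fold. The libraries of the 2 groups did not overlap for 26 of the 33 genes, and for 38.3% of all genes. By role, 15 of the 19 mevalonate and sterol enzymes were lower and 2 higher (median -0.35), 5 of the 6 genes in the list of regulators and STARD4 were lower (median -0.21), and 6 of the 8 fatty acid genes were lower (median -0.15).

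**Figure D1:**
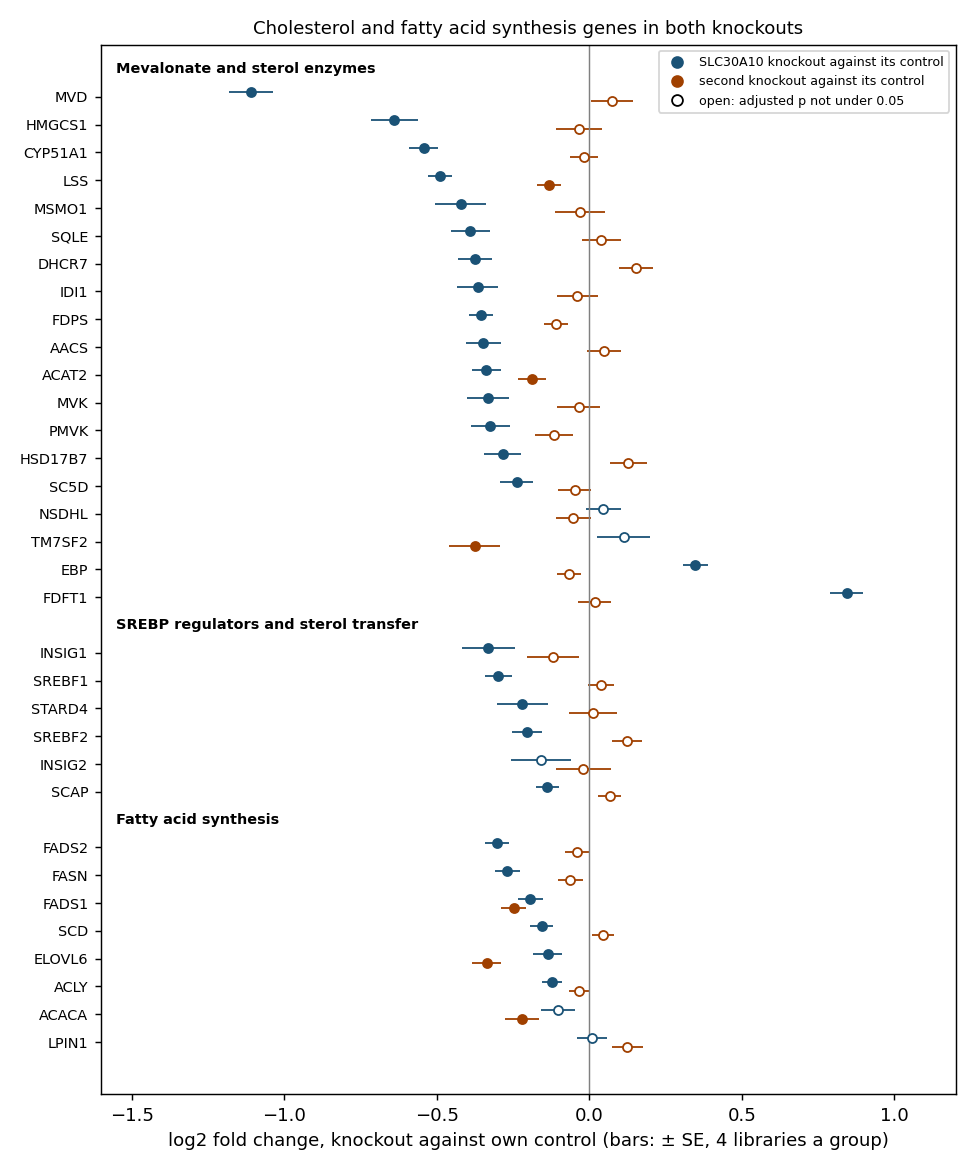
Log2 fold change of each of the 33 genes in the SLC30A10 knockout (blue) and the second knockout (brown), each against its own control, with bars of ± 1 SE and filled points for an adjusted p under 0.05; genes are grouped by role and ordered by the blue points. The blue points lie left of 0 for 28 of the 33 genes, from -1.11 for MVD to 0.84 for FDFT1, while the brown points lie between -0.38 and 0.15. Over all 15569 genes tested, 7929 had a log2 fold change below 0 in the SLC30A10 knockout.

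Because these genes share known regulators, the letters just before their start sites were searched. The 300-base promoter windows of RefSeq (assembly GRCh38.p14, 250 bases before the start and 50 after) matched 29 of the 33 genes, all but ACAT2, FDFT1, SQLE and FASN. For the sterol regulatory element only the consensus TCACNCCAC was searched, as exact letters on both strands. It was present in 1 of the 29 windows (3.45%), that of SREBF2, and in 1.15% of all 27305 promoter windows. Sites with other letters or outside the windows were not searched, so a gene without this match may still have such an element. The box CCAAT, the site that the factor NF-Y is known to bind beside many SREBP sites, was present in 17 of 29 (58.6%), against 35.7% of all windows and 36.3% of the windows of tested genes. The box GGGCGG was present in 27 of 29 (93.1%), against 69.7% of the windows of tested genes. The palindrome CACGTG was found in 4, INSIG1, LSS, SC5D and SCAP (13.8%), against 10.1% of the windows of tested genes. None of these motifs contains another, although their matches can lie side by side. A match describes the letters only. The stretch of SREBF2, at chr22:41832942-41833033 on the plus strand, is shown because it holds a match to this consensus TCACNCCAC and a CCAAT box in reverse, both in capitals. The others are shown for 4 genes picked from those that fell in the SLC30A10 knockout and have a CCAAT box. Genes without the box, such as CYP51A1 and IDI1, were passed over, and DHCR7, which has it, is not shown. Of 23 lower genes with a window 14 had the box, and so did EBP, NSDHL and TM7SF2, which were not lower. In each stretch 1 CCAAT box is in capitals (ATTGG where it reads on the other strand). They are HMGCS1 at chr5:43313478-43313542 (minus strand), LSS at chr21:46228890-46228954 (minus), MSMO1 at chr4:165327605-165327668 (plus) and FDPS at chr1:155308785-155308849 (plus). All stretches read 5′ to 3′ along the strand of the gene and end before the start that the promoter table uses.
SREBF2: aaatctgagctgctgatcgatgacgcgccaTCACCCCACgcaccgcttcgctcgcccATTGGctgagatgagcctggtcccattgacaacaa
HMGCS1: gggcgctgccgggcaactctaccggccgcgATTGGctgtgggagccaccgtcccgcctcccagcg
LSS: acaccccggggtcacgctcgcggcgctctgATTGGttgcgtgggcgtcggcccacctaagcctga
MSMO1: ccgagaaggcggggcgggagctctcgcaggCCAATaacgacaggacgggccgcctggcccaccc
FDPS: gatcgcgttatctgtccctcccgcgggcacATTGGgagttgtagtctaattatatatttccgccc

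Among the enzymes that make and use mevalonate, HMGCS1 showed the largest fall outside the shifted chromosome stretches described below. HMGCS1 joins acetyl-CoA to acetoacetyl-CoA at the entry to the pathway. Its level was 562, 503, 476 and 530.5 CPM in the control libraries and 331, 348, 319.8 and 331 CPM in the SLC30A10 knockout. Every knockout library lay below every control library (log2 fold change -0.64 ± 0.08 SE, 1.56-fold lower, adjusted p = 1.91e-07). ACAT2, which makes the acetoacetyl-CoA, had 109, 106, 117 and 101 CPM in the control and 87.6, 84.5, 82.5 and 88.4 CPM in the knockout (-0.34 ± 0.05, adjusted p = 1.60e-06). AACS, which makes acetoacetyl-CoA from ketone bodies, fell by 0.35 on the log2 scale, again without overlap. The kinases MVK and PMVK, which phosphorylate mevalonate in turn, fell by 0.33 and 0.32. For MVK the lowest control library had 32.5 CPM and the highest knockout library 30.2 CPM. IDI1, the isomerase that makes the active isoprene unit, had 118, 108, 106 and 115 CPM in the control and 84.6, 90.7, 85.9 and 86.2 CPM in the knockout (-0.37 ± 0.07, adjusted p = 9.21e-05). FDPS, which makes farnesyl diphosphate, had 274, 270.3, 260.2 and 273 CPM in the control and 209, 217, 210.5 and 207 CPM in the knockout (-0.35 ± 0.04, adjusted p = 4.78e-08). Each of these genes was lower in all 4 knockout libraries than in any control library.

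The enzymes after squalene moved in the same direction, with exceptions on chromosome X and at TM7SF2. SQLE, the epoxidase that is a known control point of the sterol branch, had 249, 241, 245 and 243 CPM in the control and 175, 198, 188 and 186 CPM in the knockout (-0.39 ± 0.06, adjusted p = 2.01e-05). LSS, the cyclase that makes lanosterol, had 157, 159, 158 and 155 CPM against 111, 113, 111 and 113 CPM (-0.49 ± 0.04, adjusted p = 1.00e-10). The 4 values within each group of LSS lay close together and the groups were far apart. CYP51A1, the demethylase that acts on lanosterol, had 186, 173, 194 and 174 CPM against 122, 129.6, 121 and 126 CPM (-0.54 ± 0.05, adjusted p = 4.85e-10). MSMO1, the next demethylating oxidase, had 190.0, 174, 160.2 and 187 CPM against 132, 135, 135 and 130.1 CPM (-0.42 ± 0.08, adjusted p = 0.000217). The control libraries of MSMO1 were more spread than the knockout libraries, and the groups did not overlap. DHCR7, which reduces 7-dehydrocholesterol to cholesterol in the last step, had 209, 213, 222 and 209 CPM against 156, 165, 167 and 169 CPM (-0.37 ± 0.06, adjusted p = 6.14e-06). HSD17B7, a sterol ketone reductase, and SC5D, the desaturase before DHCR7, fell by 0.28 and 0.24. TM7SF2, a sterol reductase whose step LBR can also carry out, had 38.8, 43.4, 41.5 and 39.99 CPM in the control and 44.7, 43.1, 44.2 and 44.8 CPM in the knockout and was not called (0.11 ± 0.09, adjusted p = 0.314). It was the one enzyme of the 19 with a median of its neighbours below its own value.

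**Figure D2:**
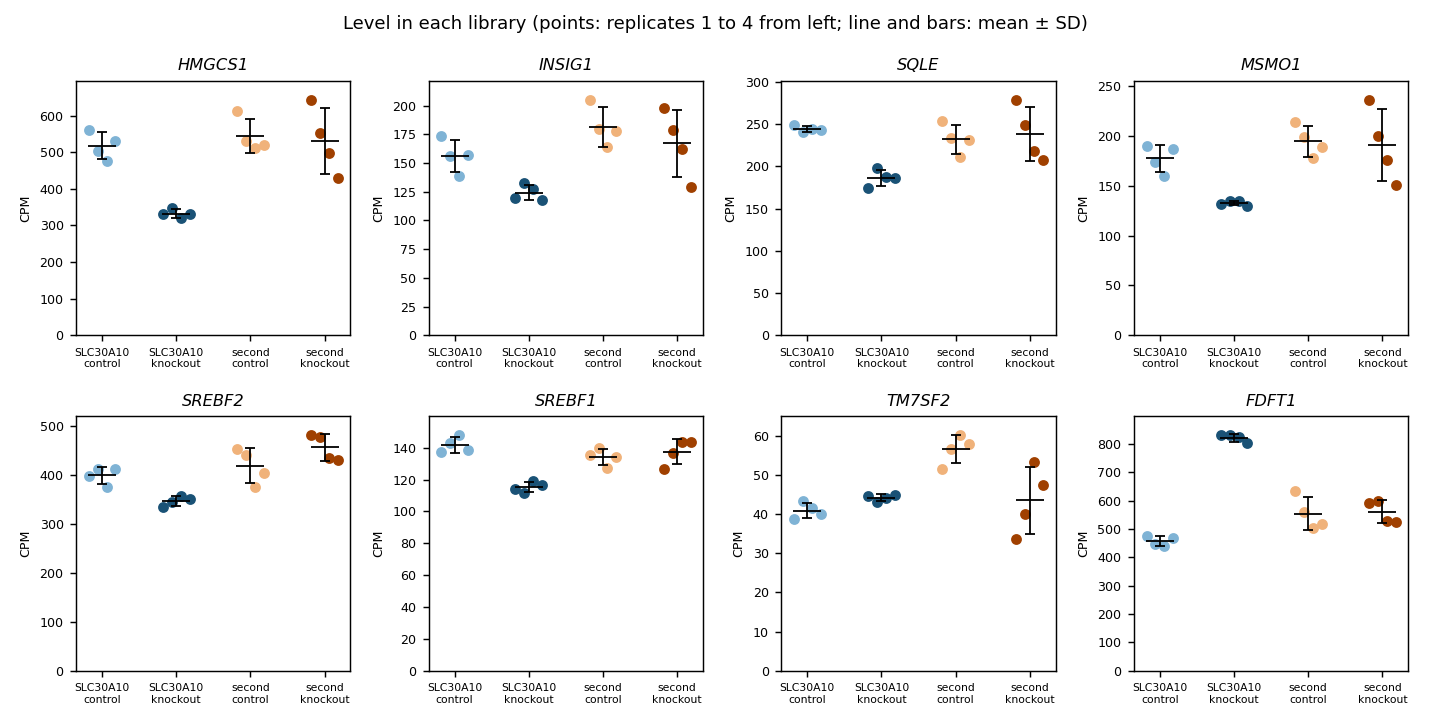
Level in CPM of 8 of the genes in each of the 16 libraries; points are replicates 1 to 4 from left to right in each group, lines are group means and bars ± 1 SD. HMGCS1 sits at 319.8 to 348 CPM in the SLC30A10 knockout and at 430 CPM or more in every other library, while FDFT1 is higher in that knockout than in any other library.

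For 4 of the genes the change has to be read beside that of the surrounding genes, since whole stretches of some chromosomes were shifted in the SLC30A10 knockout. For each gene the median log2 fold change of the 20 tested genes on each side was taken, in the RefSeq gene order of GRCh38.p14. This median lay within 0.2 of 0 for 29 of the 33 genes, a bound chosen after the values were seen. Among these 29 genes 25 were called lower and 4 were not called, with falls of 1.09 to 1.56-fold. FDFT1, squalene synthase, lies at 11795582 to 11839298 on chromosome 8 in a stretch whose median was 0.97. Its level was 477, 449, 439 and 469 CPM in the control and 830.1, 831, 825 and 802 CPM in the knockout (0.84 ± 0.05, adjusted p = 1.53e-12), a rise 0.13 smaller than that of its neighbours. With the medians of the neighbours taken out before the test, an alternative added after the data were seen, FDFT1 was at -0.13 and not called (adjusted p = 0.0574). MVD, the decarboxylase that makes isopentenyl diphosphate, lies at 88651940 to 88663091 on chromosome 16 in a stretch whose median was -0.51. It had 97.1, 92.9, 86.9 and 86.1 CPM in the control and 42.4, 42.2, 43.6 and 40.2 CPM in the knockout (-1.11 ± 0.07, adjusted p = 1.92e-12), a fall that exceeded that of its neighbours by 0.60. EBP, a sterol isomerase, and NSDHL, a sterol dehydrogenase, both lie on chromosome X, at 48521808 to 48528716 and at 152831063 to 152869729, among neighbours whose median was 0.43 in each case. EBP had 91.4, 90.3, 96.6 and 92.9 CPM in the control and 122, 114, 120.2 and 116 CPM in the knockout (0.35 ± 0.04), which was 0.08 less than its neighbours. With the medians taken out EBP was not called (-0.08, adjusted p = 0.114). NSDHL had 45.6, 48.7, 50.7 and 47.1 CPM in the control and 49.3, 51.5, 47.2 and 50.3 CPM in the knockout (0.05 ± 0.06), which was 0.38 less than its neighbours, and it was called lower with the medians taken out (adjusted p = 5.03e-06). In all, 32 of the 33 genes lay below the median of their neighbours, and the median of that difference was -0.26. In the second knockout 20 of the 33 lay below their neighbours, and between the control sets also 20. The share of all genes below their neighbours was not taken.

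**Figure D3:**
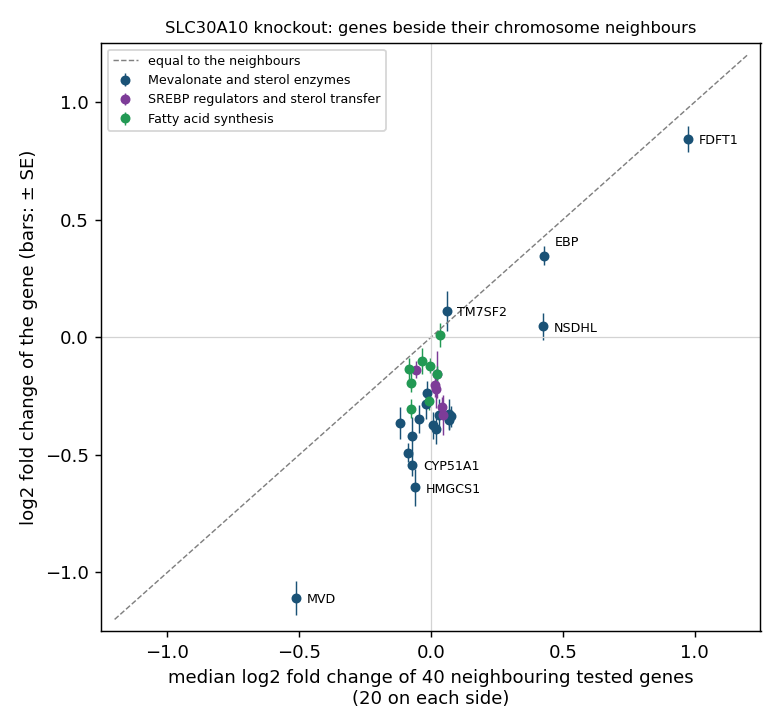
Log2 fold change of each of the 33 genes in the SLC30A10 knockout (vertical, bars ± 1 SE) against the median log2 fold change of its 40 nearest tested genes (horizontal), coloured by role; the dashed line marks equal values. All points but TM7SF2 lie below the line, and FDFT1, MVD, EBP and NSDHL stand apart from 0 on the horizontal axis.

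The regulators and STARD4 had a median change of -0.21, beside -0.35 for the enzymes, and this difference was not tested. SREBF2 encodes the SREBP form that acts mainly on cholesterol genes, and its level was 398, 411, 375 and 412 CPM in the control and 334, 344, 356 and 351 CPM in the SLC30A10 knockout (-0.20 ± 0.05, adjusted p = 0.0018). SREBF1, whose products act more on fatty acid genes, had 137, 143, 148 and 139 CPM in the control and 114, 111, 119 and 116 CPM in the knockout (-0.30 ± 0.04, adjusted p = 3.71e-06). Neither gene had a knockout library within the range of its control libraries. SCAP, the escort of the SREBP precursors, fell by 0.14 (adjusted p = 0.00509), and its call was lost with the medians of the neighbours taken out (adjusted p = 0.0949). INSIG1, which retains SCAP when sterol is high, had 174, 156, 139 and 157 CPM in the control and 119.9, 132, 127 and 118 CPM in the knockout (-0.33 ± 0.09, adjusted p = 0.00303). All knockout libraries of INSIG1 lay below the control libraries. INSIG2, its paralogue, had 22.6, 17.2, 15.8 and 19.9 CPM and 17.1, 19.0, 15.5 and 16.1 CPM, which overlapped (-0.16 ± 0.10, adjusted p = 0.21). STARD4, which carries cholesterol between membranes, had 82.0, 62.3, 59.4 and 66.3 CPM in the control and 58.2, 62.0, 55.1 and 56.7 CPM in the knockout (-0.22 ± 0.08, adjusted p = 0.0363). Control replicate 1 was the highest library of STARD4, the groups overlapped, and without that library the change was -0.11 (adjusted p = 0.262). Its call was also lost without knockout replicate 1, 3 or 4, with adjusted p of 0.0651, 0.0988 and 0.0742.

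The fatty acid synthesis genes had the median nearest to 0 of the 3 lists, at -0.15. ACLY, which makes cytosolic acetyl-CoA from citrate, had 505, 496, 501 and 487 CPM in the control and 457, 457, 459 and 456 CPM in the SLC30A10 knockout (-0.12 ± 0.03, adjusted p = 0.00443). FASN, the synthase that builds palmitate, had 1234, 1323, 1278 and 1340.5 CPM and 1050.1, 996, 1148 and 1102 CPM (-0.27 ± 0.04, adjusted p = 7.35e-06). SCD, the desaturase that makes oleate, had 1572, 1540.0, 1512 and 1528 CPM and 1341, 1429.7, 1382 and 1366 CPM (-0.16 ± 0.04, adjusted p = 0.001). None of these 3 genes had overlapping groups. FADS2, the desaturase at the start of polyunsaturated fatty acid synthesis, had 692, 691, 741 and 665 CPM against 569, 548, 577 and 567 CPM (-0.30 ± 0.04, adjusted p = 7.06e-07). Its neighbour FADS1, which acts later in the same route, fell by 0.19 (adjusted p = 0.000447). ELOVL6, the elongase that takes palmitate to stearate, fell by 0.14 (adjusted p = 0.0226) with overlapping groups, 153, 147, 147 and 137 CPM against 128, 142, 133 and 129 CPM. The ELOVL6 call was lost without control replicate 1 (adjusted p = 0.0899), knockout replicate 1 (0.0804) or knockout replicate 4 (0.0673). With the medians of the neighbours taken out ELOVL6 was at -0.05 and not called (adjusted p = 0.387). LPIN1, a phosphatidate phosphatase, was not called (0.01 ± 0.05, adjusted p = 0.902), with 54.8, 60.3, 64.1 and 59.3 CPM and 58.4, 60.3, 57.2 and 64.1 CPM.

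ACACA, the acetyl-CoA carboxylase that makes malonyl-CoA, has a numbered further entry in the deposited table, and what separates the 2 entries is not given in the sources used here. The plain entry held 23619 counts over the 16 libraries and the numbered one 72025. The plain entry had 89.2, 95.01, 89.7 and 102 CPM in the control and 90.0, 89.7, 86.3 and 84.1 CPM in the SLC30A10 knockout and was not called (-0.10 ± 0.06, adjusted p = 0.143). The numbered entry was not called either (log2 fold change 0.01 ± 0.04 SE, adjusted p = 0.881). In the second knockout both entries fell, by 0.22 and by 0.23, with adjusted p of 0.00682 and 0.000111. LSS also has a numbered entry, with 11 counts in all.

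Seen as a share of each library, the 33 genes together took 0.747% to 0.764% of the counts in the SLC30A10 knockout, against 0.837% to 0.880% in its control, 0.845% to 0.918% in the second control set and 0.833% to 0.909% in the second knockout. To weight the genes equally, each gene's log2 CPM was set against its mean over the 16 libraries and averaged by role. For the 19 enzymes of the sterol route this mean deviation was 0.07 ± 0.02 (SD, n = 4) in the SLC30A10 control and -0.20 ± 0.02 in the knockout. For the 15 of them outside the shifted stretches it was 0.10 ± 0.02 and -0.25 ± 0.02. For the regulators and STARD4 it was -0.03 ± 0.09 and -0.25 ± 0.04, and for the fatty acid genes 0.04 ± 0.01 and -0.12 ± 0.01. The SLC30A10 knockout libraries were the 4 lowest of the 16 in all 3 lists. The sterol enzymes were more spread in the second set, at 0.08 ± 0.07 in its control and 0.04 ± 0.07 in the second knockout.

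**Figure D4:**
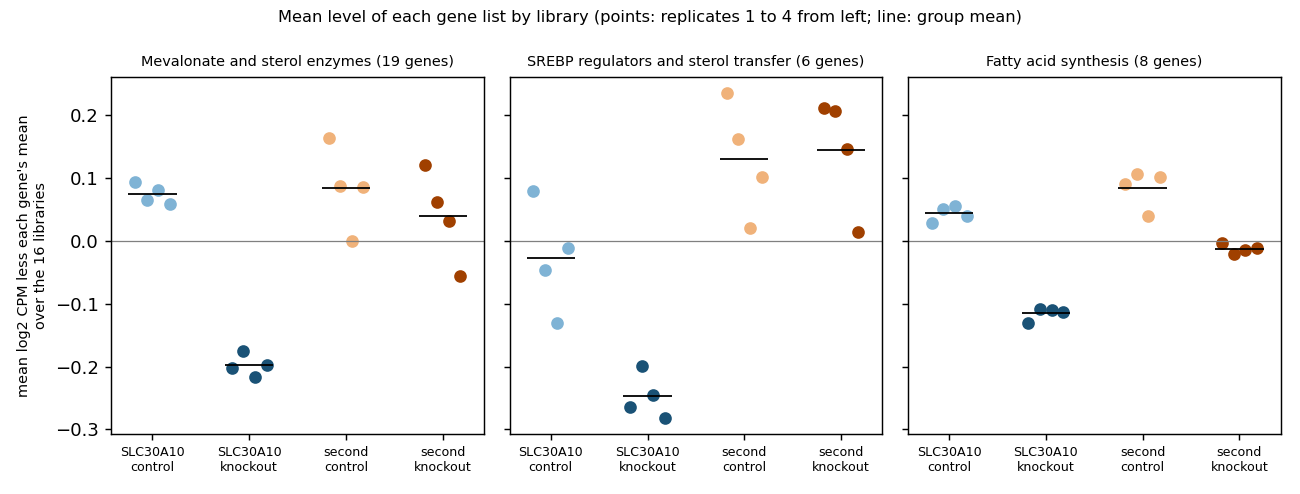
Mean over the genes of each list of log2 CPM less the gene's mean over the 16 libraries, by library; points are replicates 1 to 4 from left to right and lines are group means. In each panel the 4 SLC30A10 knockout libraries are the lowest, and the libraries of the second set are more spread for the sterol enzymes and regulators than for the fatty acid genes.

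Between the second knockout and its control 27 of these genes were not called. The share called lower was still above that of all genes, a comparison that was not tested. By edgeR's quasi-likelihood test 6 of the 33 were lower, where 7.03% of all genes were called lower, and none was higher, where 6.67% of all genes were. At an unadjusted p under 0.05 there were 4 higher and 7 lower, and DESeq2 also called 6 lower and 0 higher. The share of all genes on these other rules was not taken, so these counts have no background beside them. The median log2 fold change was -0.03. The groups did not overlap for 6 of the 33 genes, a share near the 16.3% of all genes. ELOVL6 had 143, 135, 153 and 152 CPM in the second control set and 116, 113, 123 and 109.9 CPM in the second knockout (-0.34 ± 0.05, adjusted p = 7.00e-06). FADS1 had 471, 489, 464 and 480.5 CPM and 362, 391, 428 and 424 CPM (-0.25 ± 0.04, adjusted p = 7.38e-05). Each knockout library of both genes lay below the control libraries. TM7SF2 had 51.6, 56.6, 60.1 and 58.0 CPM and 33.7, 39.9, 53.3 and 47.4 CPM (-0.38 ± 0.08, adjusted p = 0.00238), and knockout replicate 3 lay within the control range. Against both control sets pooled TM7SF2 was not called (-0.14, adjusted p = 0.141). ACAT2 fell by 0.19 (adjusted p = 0.00509), with 123, 116, 114 and 121 CPM in the control and 99.5, 101, 109 and 107 CPM in the knockout. The fall of LSS was 0.13 (adjusted p = 0.0227), and this call was lost when 1 of 5 libraries was left out: replicate 1 or 2 of the second control set (adjusted p = 0.0767 and 0.0988) or replicate 1, 2 or 4 of the second knockout (0.0547, 0.110 and 0.0760). DHCR7 and SREBF2 pointed upward without being called (0.15 ± 0.06 and 0.12 ± 0.05, adjusted p = 0.072 and 0.105). Both were called higher without second control replicate 1 (adjusted p = 0.0155 and 0.0282) and without second knockout replicate 4 (0.0127 and 0.0477). DHCR7 was also called higher without second knockout replicate 3 (0.0352). With replicate number as a block in edgeR's test both were called higher (adjusted p = 0.00881 for DHCR7 and 0.0290 for SREBF2). FDPS was not called (-0.11 ± 0.04), but was lower without SLC30A10 control replicate 3 (adjusted p = 0.0493) or second control replicate 3 (0.00886).

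The difference between both knockout effects was tested in the same fit, as the SLC30A10 effect less the second effect. It was negative and called for 18 of the 33 genes, against 14.6% of all genes, and positive and called for 4, against 16.7% of all genes. MVD (-1.18 ± 0.10), HMGCS1 (-0.60 ± 0.11), DHCR7 (-0.53 ± 0.08) and CYP51A1 (-0.53 ± 0.07) had the most negative differences. For DHCR7 the SLC30A10 change was -0.37 and the second change 0.15. The positive ones were FDFT1 (0.83 ± 0.08), TM7SF2 (0.49 ± 0.12), EBP (0.41 ± 0.06) and ELOVL6 (0.20 ± 0.07). ACACA was not called by its plain entry (0.12 ± 0.08). Its numbered entry, kept apart from the 33, was positive and called (0.24 ± 0.05, adjusted p = 0.00157). With both entries summed, an added alternative, ACACA was called as well (adjusted p = 0.00657). With the medians of the neighbours taken out, FDFT1 and EBP were no longer called, at -0.17 and -0.0072, and the calls of IDI1 (adjusted p = 0.295) and SCAP (0.138) were lost. The same setting added negative calls for NSDHL (adjusted p = 0.00167), ACAT2 (0.00704), PMVK (0.00694) and SC5D (0.0356). It gave 20 negative calls and 2 positive calls. The ELOVL6 difference (adjusted p = 0.0235) was lost without any of 6 libraries (replicate 4 of the SLC30A10 control, replicate 2 of its knockout, replicates 3 and 4 of the second control set and replicates 2 and 4 of the second knockout; adjusted p from 0.0601 to 0.0760). That of MVK (adjusted p = 0.0223) was lost without replicate 4 of the second control set (0.0517). Among the 11 genes not called, INSIG1 stood at -0.21 ± 0.12, STARD4 at -0.23 ± 0.11 and ACLY at -0.09 ± 0.05. INSIG1 and STARD4 were called without second knockout replicate 4, with adjusted p of 0.00945 and 0.0205, and STARD4 also without SLC30A10 control replicate 3 (0.0484). SC5D (-0.19 ± 0.08, adjusted p = 0.0558) was called without SLC30A10 control replicate 4 (0.0328), SLC30A10 knockout replicate 2 (0.0300), or second knockout replicate 3 or 4 (0.0266 and 0.00781). ACAT2 was called without SLC30A10 control replicate 4 or second knockout replicate 1 (0.0308 and 0.0455), and PMVK without SLC30A10 control replicate 1 (0.0307).

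Both control sets are labelled as the same line. Of the 33, 9 were lower in the SLC30A10 control than in the second control set, where 20.8% of all genes were called lower, and 5 were higher, where 18.5% of all genes were, so these counts are near the background. None reached 1.5-fold. TM7SF2 was -0.47, STARD4 -0.42 and INSIG2 -0.41 on the log2 scale. STARD4 had 82.0, 62.3, 59.4 and 66.3 CPM in the SLC30A10 control and 98.3, 89.3, 82.7 and 90.8 CPM in the second control set, with no overlap. FDFT1 (-0.27), FADS1 (-0.27), INSIG1 (-0.22), FDPS (-0.21), ACAT2 (-0.13) and SCD (-0.13) were the other lower genes. MVK (0.30), DHCR7 (0.24), CYP51A1 (0.21), NSDHL (0.17) and SCAP (0.11) were higher. The calls of INSIG1, ACAT2, NSDHL and SCAP were lost under some of the leave-out fits, with highest adjusted p of 0.212, 0.135, 0.0787 and 0.0774, and DESeq2 did not call INSIG1 (adjusted p = 0.141). FASN (0.10, adjusted p = 0.0616) was called in 7 of the 16 leave-out fits, AACS (-0.14) in 2 and ACLY (-0.07) in 1. Each knockout was therefore compared with its own control set.

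Within groups some of these genes deviated together from library to library. With the group means taken out, the median pairwise correlation over the 16 libraries was 0.24 among the sterol enzymes, 0.19 among the regulators and STARD4 and 0.01 among the fatty acid genes, beside 0.008 over 8455 genes at least as abundant as the lowest member. Each gene was also set against a mean of other genes. These were the 15 sterol enzymes outside the shifted stretches, the regulators and STARD4, without the gene itself. Pearson's r was 0.92 for IDI1, 0.92 for INSIG1, 0.91 for HMGCS1, 0.90 for SCD, 0.89 for SQLE and 0.88 for MSMO1. It was -0.78 for TM7SF2, -0.46 for FADS1 and -0.45 for SREBF1. These points share the library, and with it depth and handling, so the values are a description. Within the second knockout HMGCS1 was at 643, 552, 499 and 430.3 CPM, INSIG1 at 198, 179, 162 and 129 CPM and SQLE at 279, 249, 218 and 208 CPM in replicates 1 to 4. Replicate 1 was the highest and replicate 4 the lowest library of all 3 genes. TM7SF2 had its lowest value in replicate 1 and SREBF1 also (127, 136, 144 and 144 CPM).

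**Figure D5:**
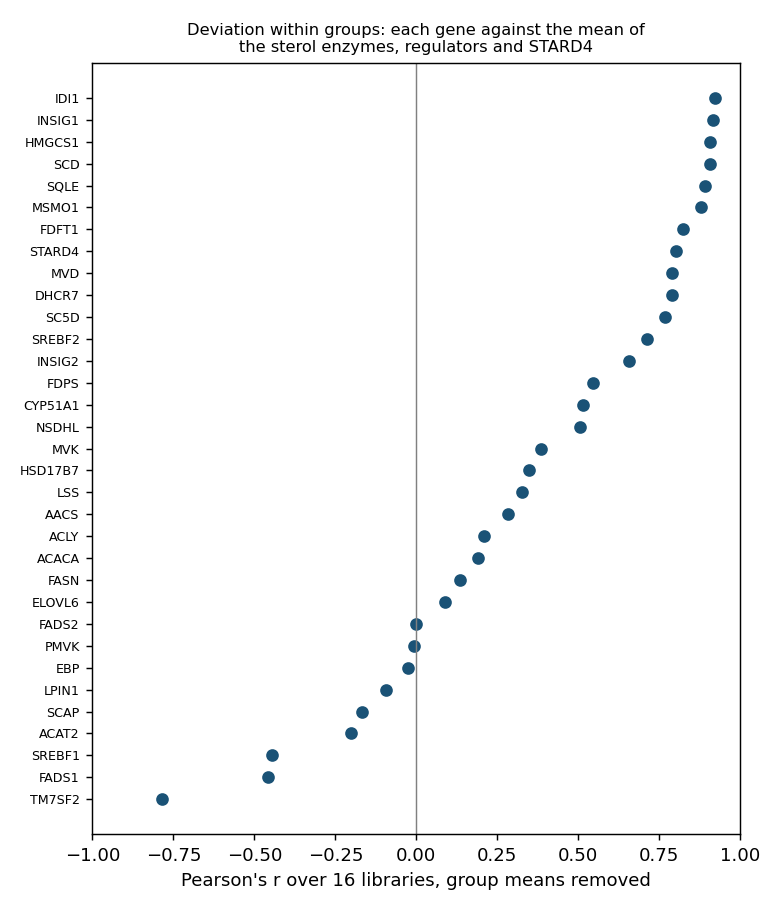
Pearson's r of each gene with a mean of other genes over 16 libraries after group means were removed. The mean is over the sterol enzymes outside the shifted stretches, the regulators and STARD4, without the gene itself. It is a description, since the points share libraries. IDI1, INSIG1, HMGCS1, SCD, SQLE and MSMO1 stand at 0.88 to 0.92, and TM7SF2 stands lowest at -0.78.

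Per kilobase of annotated exon, the most abundant of these transcripts in the SLC30A10 control was SCD at 287 CPM per kilobase, followed by FASN at 138, HMGCS1 at 110.1 and ACLY at 95.3. In the SLC30A10 knockout the same levels were 257, 115, 70.7 and 87.6 CPM per kilobase. FDFT1 was at 88.1 in the control and at 158 in the knockout, where only SCD was higher. At the low end of the control order were LPIN1 at 5.03, INSIG2 at 4.78 and AACS at 2.73 CPM per kilobase. INSIG1 (42.8) was more abundant than INSIG2, and SREBF2 (52.8) than SREBF1 (17.6). Exon lengths are those of all annotated transcripts joined, so a gene with long rare exons is set too low.

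The other genes of the pathway were taken from lists by function, and their counts are to be read beside the 20.2% of all genes called lower and the 21.2% called higher in the SLC30A10 knockout. Of 6 further sterol synthesis genes 5 were lower in the SLC30A10 knockout and 1 was not called. Among the 5 were LBR, the other enzyme of the step of TM7SF2 (-0.18 ± 0.04), and RDH11 (-0.17 ± 0.04), which lost its call against pooled controls (adjusted p = 0.134). Of 10 genes of SREBP cleavage and sterol-regulated degradation 2 were lower and 2 higher. MBTPS1, the site-1 protease that cleaves SREBP, was at -0.66 ± 0.04 among chromosome 16 neighbours at -0.55. MBTPS2, the site-2 protease, was at 0.34 ± 0.06 among chromosome X neighbours at 0.41 and turned to -0.07 with the medians of the neighbours taken out. Of 12 genes of LXR action and sterol efflux 4 were higher and 3 lower, with LPCAT3, a phospholipid acyltransferase, at 0.27 ± 0.06 and MYLIP, a ligase that marks lipoprotein receptors for degradation, at -0.24 ± 0.06. Among 16 genes of sterol uptake, transport and storage 3 were higher and 5 lower. GRAMD1B, which moves cholesterol from the plasma membrane, rose by 0.82 (adjusted p = 1.27e-08), while SCARB1, a lipoprotein receptor, fell by 0.27 and NPC2, which hands on lysosomal cholesterol, by 0.23. SOAT1, which esterifies cholesterol, was not called (0.01 ± 0.05). In the second knockout GRAMD1B was at -0.31 and SCARB1 at 0.19 against its own control. Against both control sets pooled they were at -0.12 and 0.05 there, so their levels also differed between the control sets.

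Of 14 genes of the nonsterol isoprenoid branch 1 was higher and 2 lower in the SLC30A10 knockout, where 21.2% of all genes were called higher and 20.2% lower. The lower ones were PDSS1 (-0.24 ± 0.07) and COQ2 (-0.16 ± 0.05), both of ubiquinone synthesis. The PDSS1 call was lost against pooled controls (adjusted p = 0.918) and with neighbour medians taken out (0.102). COQ2 lost its call against pooled controls (0.11) and without SLC30A10 control replicate 2 (0.059). Unlike the 8 fatty acid synthesis genes, the 30 tested genes of fatty acid supply, elongation and lipid assembly had 15 higher and 3 lower, with a median of 0.12, a comparison of counts that was not tested. The genes of that list on chromosome X were at 0.34 and 0.27, among neighbours at 0.32 and 0.39. SCD5, another stearoyl-CoA desaturase, rose by 0.80 (adjusted p = 3.15e-08) while SCD fell. LPIN3, a relative of LPIN1, rose by 0.60, and ACSL3, an acyl-CoA synthetase, by 0.31. Of 17 genes of fatty acid oxidation 7 were lower and 3 higher, with DECR1 at -0.83 ± 0.06 and HADHA at -0.44 ± 0.04. In the second knockout 24 of the 105 genes in these lists were called, 17 lower and 7 higher. Over all genes 7.03% were called lower and 6.67% higher, so the higher calls were near the background. Among the lower ones were RNF145 (-0.34 ± 0.04), SOAT1 (-0.25 ± 0.05), NPC2 (-0.29 ± 0.05) and ACADM (-0.22 ± 0.05). SCD5 was at -0.30 in the second knockout against its own control and at 0.0046 against both control sets pooled. Its level therefore also differed between the control sets.

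Some of these transcripts overlap others, and the use of strand in counting is not given in the sources used here. ACAT2 shares 26.5% of its exon bases with SOD2 (log2 fold change 0.15 in the SLC30A10 knockout) and 9.23% with TCP1 (0.25), both on the opposite strand and both with the opposite sign to ACAT2. IDI1 shares 14.8% with IDI2-AS1 (-0.45), SREBF1 shares 6.92% with RAI1 (-0.10), and MVK shares 4.72% with MMAB (-0.34). FADS1 and FADS2 share 490 bases. CYP51A1 lies under a same-strand entry of the annotation over 79.4% of its exon bases, and that entry was not tested.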

How the data were processed

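RNA of HAP1 cells was poly-A selected and read as pairs on a DNA nanoball platform, per the labels' protocols. HISAT2, featureCounts and DESeq2 and the build hg38 (GRCh38) are named in the submitters' processing notes. Their versions, the annotation and the strand setting are not given in the sources used here. The authors deposited whole-number counts per gene symbol, which were used, and a table of normalized values, which was not. Samples were grouped by genotype and title in the labels, with 4 libraries a group. The other deleted gene is not reported here.

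Counts were fitted with edgeR 4.0.16 in R 4.3.3: edgeR's expression filter (minimum count 10, minimum total 15), scaling by the trimmed mean of M-values, 1 mean per group over all 16 libraries, quasi-likelihood F tests and Benjamini-Hochberg adjustment over 15569 genes, tested on simulated data first. The common biological coefficient of variation was 0.0497. A lone value was compared with an exact permutation test. Replicate pairs differed by more than sampling noise: chi-square over its degrees of freedom was 1.60 to 6.43. The replicate numbers were not used to pair the samples in the main fit, and pairing was not tested. Deviations of same-numbered libraries of the control sets correlated at -0.10 to 0.11, and 3 libraries matched best with the same number. For each knockout against its own control this count was 0 (SLC30A10) and 1 (second). Neighbours were the 20 tested genes on each side in RefSeq order (GRCh38.p14, 90.8% of tested genes placed). Exon lengths and overlaps came from GENCODE, promoters from RefSeq. Alternatives were DESeq2 1.42.0, other scalings, filters and thresholds, a replicate block, pooled controls and leaving out each library. All 33 genes, SLC30A10 and up to 3 genes per related list and knockout, those of smallest adjusted p, could be named, and the ones named were picked from these. The genes and lists were chosen with earlier results of these data known.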

Additional observations from a re-analysis of the deposited data

Results flagged for a closer look

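In the second knockout replicate 4 lay below the other libraries for 2 genes by Dixon's test. HSD17B7 was at 28.2 CPM there against 31.3 to 31.7 CPM, a gap of 0.886 of the group's range. INSIG2 was at 22.2 CPM against 25.5 to 25.8 CPM, a gap of 0.910. Of 152 groups of values tested 2 stood out in this way, where chance gives 7.6.

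The other genes stood out because the effects of both knockouts differed past the threshold in edgeR's test of that difference, given here as the SLC30A10 change less the second change on the log2 scale. Among the mevalonate and sterol enzymes it was -1.18 for MVD, -0.60 for HMGCS1, -0.53 for DHCR7, -0.53 for CYP51A1, -0.43 for SQLE, -0.41 for HSD17B7, -0.39 for AACS, -0.39 for MSMO1, -0.36 for LSS, -0.33 for IDI1, -0.30 for MVK and -0.24 for FDPS. Positive values were 0.83 for FDFT1, 0.49 for TM7SF2 and 0.41 for EBP. The regulators SREBF1, SREBF2 and SCAP stood at -0.34, -0.33 and -0.20. Of the fatty acid genes FADS2 was at -0.26, FASN at -0.21, SCD at -0.20 and ELOVL6 at 0.20.

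Among the related genes the difference was -0.80 for DECR1, -0.71 for MBTPS1, -0.46 for SCARB1, -0.32 for HADHA, -0.28 for COQ2 and -0.15 for RDH11. It was 1.13 for GRAMD1B, 1.10 for SCD5, 0.56 for LPIN3, 0.52 for ACSL3, 0.42 for LPCAT3, 0.33 for RNF145, 0.32 for MBTPS2 and 0.26 for SOAT1. The 2 control sets of these comparisons differ from each other for several of the genes, as the report gives.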

How the results depend on the processing

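In the SLC30A10 knockout the counts of 26 lower and 2 higher genes were 26 and 2 with DESeq2 and 26 and 2 with the replicate block. Leaving out 1 library at a time gave 24 to 26 lower and 2 to 2 higher, with 51 to 58 of the related genes called (55 with all). In the second knockout the leave-out fits gave 5 to 7 lower and 0 to 2 higher and 18 to 26 related genes (24 with all). For the difference they gave 17 to 21 lower and 3 to 4 higher, and between the control sets 7 to 11 lower and 4 to 6 higher. The level of SLC30A10 ranged from -0.52 to 0.068 in these fits and was 0.20 against pooled controls.

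A fold change of at least 1.5 left 2 lower, 1 higher and 11 related genes in the SLC30A10 knockout, 0 lower and 1 related gene in the second knockout, 2 lower and 1 higher for the difference, and 0 lower and 0 higher between the control sets. An adjusted p under 0.01 left 14 related genes in the second knockout and 3 higher between the control sets. In the second knockout the count of higher genes was 1 with library totals alone, 2 with no filter on low counts, 2 with the replicate block (DHCR7 and SREBF2) and 4 against pooled controls, which also gave 10 lower, 40 related genes and SCD5 at 0.0046.

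With the medians of the neighbours taken out, added after the data were seen, there were 0 higher genes in the SLC30A10 knockout and 2 for the difference. FDFT1 was at -0.13 and -0.17 in these, EBP at -0.081 and -0.0072, and MBTPS2 at -0.066 in the knockout. NSDHL was called lower in both (adjusted p = 5.03e-06 and 0.00167). Summing numbered copies, also added, kept every count within 1.5 times. ACACA was then called for the difference (adjusted p = 0.00657). Same-numbered libraries deviated with correlations of -0.07 to 0.0036 (SLC30A10 set) and -0.02 to 0.12 (second set), so the block rests on numbers alone. It gave 6 lower in the second knockout, 19 lower and 4 higher for the difference and 9 lower and 5 higher between the control sets. For SLC30A10 relabelling within numbered pairs gave p = 0.75 (exact permutation). Causes of these moves were not tested. INSIG2 had 15.5 to 28.9 CPM, where counting error is a larger share of the value than for the abundant genes.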
